A study of Mus musculus with 6 samples.

Results

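The genes of GABA and glycine transmission were examined in the cerebellum of mice labelled as lacking Slc39a14, the gene of the manganese, zinc and iron transporter ZIP14. The set was a fixed list of 26 genes for receptor subunits, scaffolds, synthesis, transport and breakdown of both transmitters and chloride transport, matched by symbol. The granule cell subunits Gabra6 and Gabrd and the partner Gabbr2 were left out of it. All 26 were found among the 55098 genes of the table, and all 26 passed the filter on low counts. RNA-seq had been run on the whole cerebellum of males aged 60 postnatal days, 3 labelled as Slc39a14 knock-out (KO, animals 2, 4 and 6) and 3 as wild type (WT, animals 1, 3 and 5), with 1 library per animal. The series presents the mouse as a model of a childhood dystonia with parkinsonism brought about by manganese. The sources used here do not give strain, litter or the part of Slc39a14 that was removed. P-values of single genes weigh the difference between the groups against the spread within them, over these 6 animals. The edgeR fit draws each gene's spread toward the trend over all genes in the fit, so it is not that gene's own spread alone. P-values of ratios set the KO and WT grouping against all other groupings of the 6 libraries.

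GABA and glycine are the fast inhibitory transmitters of the brain. Both open chloride channels made of a ring of related subunits, so that their effect depends on the chloride gradient across the membrane. In the cerebellum GABA is released by Purkinje cells, by the basket and stellate cells of the molecular layer and by Golgi cells, many of which also release glycine onto granule cells. Bergmann glia and other astrocytes take up both transmitters and carry GABA receptors of their own.

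The starts of 4 of the genes, picked for their values or their place, are printed here, and no expression result rests on their sequence. Slc6a11 was the member whose KO and WT libraries did not overlap, Gabra2 was the one that varied most between animals, and Gabra4 and Gabrb1, its neighbours, are read in opposite directions from starts that lie side by side. Each line is a RefSeq promoter window of the build GRCm38.p6, from 250 bases before the start of transcription to 50 bases after it, read along the gene. Capitals mark matches on either strand to the metal response core, written TGCACNC or TGCGCNC, which the zinc-sensing factor MTF-1 recognises. The windows lie at chr6:114130991-114131290 (Slc6a11, + strand), chr5:71095800-71096099 (Gabra2, - strand), chr5:71658259-71658558 (Gabra4, - strand) and chr5:71657671-71657970 (Gabrb1, + strand).
Slc6a11: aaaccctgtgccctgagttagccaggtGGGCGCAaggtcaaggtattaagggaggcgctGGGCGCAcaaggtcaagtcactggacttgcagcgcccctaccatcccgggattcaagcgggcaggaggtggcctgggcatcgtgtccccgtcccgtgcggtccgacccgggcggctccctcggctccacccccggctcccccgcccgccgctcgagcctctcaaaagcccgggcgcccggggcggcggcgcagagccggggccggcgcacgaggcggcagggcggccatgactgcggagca
Gabra2: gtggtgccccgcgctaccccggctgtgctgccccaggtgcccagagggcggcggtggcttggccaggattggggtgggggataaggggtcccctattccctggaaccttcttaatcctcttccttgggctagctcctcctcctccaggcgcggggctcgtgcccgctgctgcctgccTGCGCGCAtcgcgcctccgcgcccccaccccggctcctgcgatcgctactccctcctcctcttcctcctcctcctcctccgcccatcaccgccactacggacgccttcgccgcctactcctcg
Gabra4: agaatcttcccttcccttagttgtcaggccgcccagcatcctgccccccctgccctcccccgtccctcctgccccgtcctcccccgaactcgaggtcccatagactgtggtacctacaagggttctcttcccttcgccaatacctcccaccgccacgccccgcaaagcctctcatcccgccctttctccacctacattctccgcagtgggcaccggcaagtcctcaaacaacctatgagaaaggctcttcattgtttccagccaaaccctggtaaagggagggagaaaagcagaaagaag
Gabrb1: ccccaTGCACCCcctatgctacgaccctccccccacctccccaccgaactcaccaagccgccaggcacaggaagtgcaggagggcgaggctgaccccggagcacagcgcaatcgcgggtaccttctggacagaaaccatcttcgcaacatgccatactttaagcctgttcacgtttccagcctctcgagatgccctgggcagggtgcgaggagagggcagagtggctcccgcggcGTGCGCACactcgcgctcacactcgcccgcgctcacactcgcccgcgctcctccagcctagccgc

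Slc6a11 held 2 matches and 32 CpG dinucleotides in this window, Gabra2 2 matches and 25 CpG, and Gabrb1 3 matches and 25 CpG, where matches on opposite strands can overlap. Gabra4 held no match and 12 CpG. RefSeq windows were at hand for 23 of the 26 genes, 31 windows in all because several genes have more than 1 start. Either core was found in 10 of the 31 windows (32.3%), those of Gabra2, Gabrb1, Gabbr1, Glra2, Nlgn2, Gad1, Slc32a1, Slc6a5, Slc6a9 and Slc6a11. It was found in 25.7% of all 32851 windows of this length. For comparison, the metallothionein genes Mt1 and Mt2, textbook targets of MTF-1, held 3 and 4 matches. The GC box, written GGGCGG, was in 16 of the 31 (51.6%) and in 35.7% of all windows. The windows held a median of 14 CpG, against 7 over all windows. A match describes the letters only and shows no binding.

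Total gene counts were 13912821 to 15754275 in KO and 13805997 to 15788135 in WT libraries. Slc39a14 itself had 654, 572 and 640 counts in KO 2, 4 and 6, against 582, 646 and 598 counts in WT 1, 3 and 5, so that the count over the whole gene did not check the labels, and KO and WT stand for libraries labelled so. In an edgeR quasi-likelihood fit over 17142 tested genes, 8 passed (0.0467%), all higher in KO. WT 5 and KO 4 stood apart from the other libraries, and this showed as a tilt by GC content of the transcript. CPM here are counts scaled to library size and TMM factor. Across 15869 tested genes averaging 1 CPM or more and having a GENCODE transcript, a gene's deviation from its own mean had a Spearman rho with GC content of -0.56 in KO 4 and -0.57 in WT 5. The same rho was 0.13 in KO 2, 0.57 in KO 6, 0.37 in WT 1 and 0.44 in WT 3. The 6 values are not independent of each other, since deviations from a mean add up to 0. Results are therefore given as counted and, where it moves the value, after a smooth in GC content was removed from each library.

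None of the 26 genes passed the test. In the edgeR fit 0 of 26 had an adjusted p under 0.05, the smallest being 1.0. The count was also 0 by DESeq2 and by limma-voom, and 0 in all 15 alternative settings. At an unadjusted p under 0.05 there was 1 gene, Slc6a11, against 2.75% of all tested genes. It was lower in KO, as were 1.06% of all tested genes at that p, and 0 of the 26 were higher, against 1.69%. The log2 fold changes of KO over WT ran from -0.39 (Slc6a11) to 0.21 (Gabra2). They were negative for 19 of the 26, with a median of -0.048. Of all tested genes 51.2% were negative, with a median of -0.004. For 20 of the 26 the 95% interval lay wholly within a 1.5-fold difference in either direction, as it did for 60.5% of all tested genes. Transcript counts from whole tissue cannot tell fewer cells of a type from less RNA per cell.

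**Figure D1:**
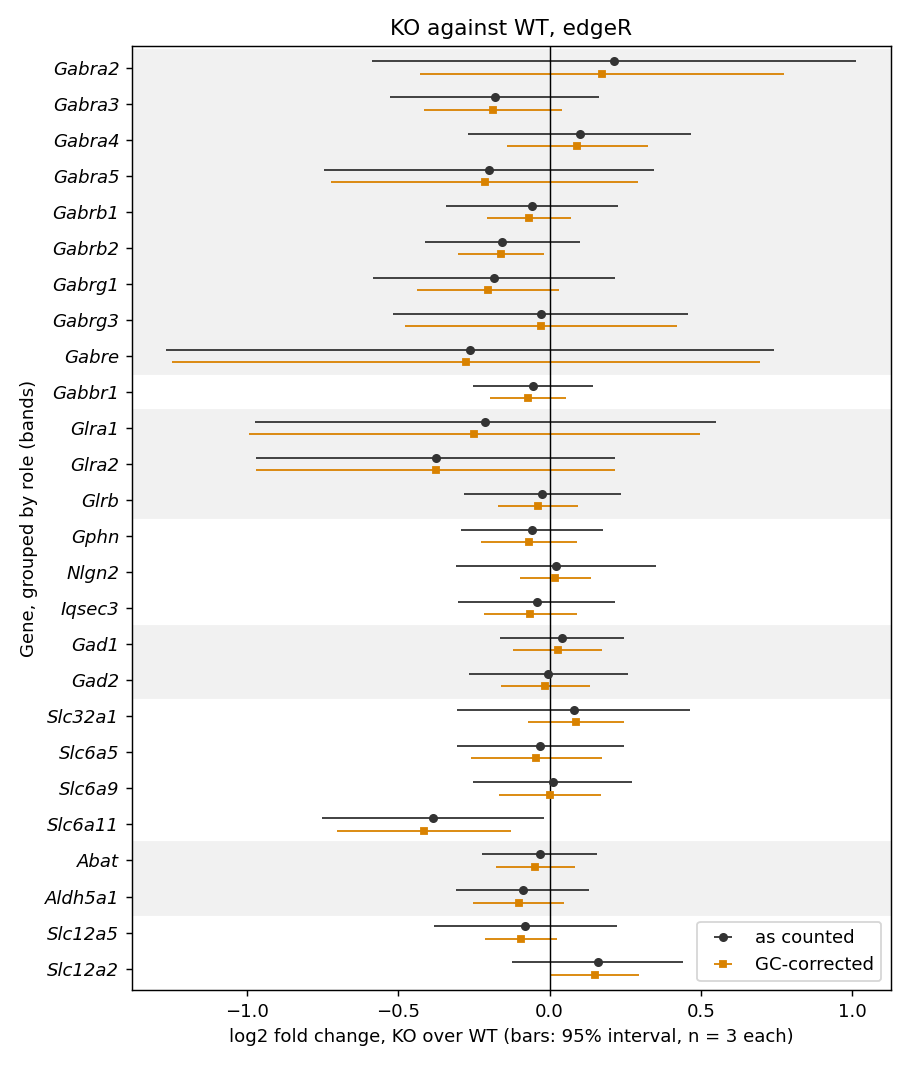
Log2 fold change of KO over WT for the 26 genes (x axis), with 95% intervals from the edgeR fit, 3 animals per group. Circles are as counted and squares after the GC correction. All intervals as counted but that of Slc6a11 (-0.75 to -0.020) include 0, and 25 of the 26 squares have a smaller standard error than their circles.

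The GABA-A receptor is a ring of alpha and beta subunits joined by a gamma, delta or epsilon subunit. Of the 9 subunit genes on the list, 2 had a positive and 7 a negative fold change, and none passed. Levels between genes are given in FPKM, fragments scaled to gene length and library size. Gabrb2, a beta subunit abundant in the adult cerebellum, had the highest level of the 9, at 40.6 ± 2.97 FPKM in KO (SD, n = 3), against 45.7 ± 6.61 FPKM in WT (SD, n = 3). Its CPM were 256, 294 and 267 in KO 2, 4 and 6, against 271, 289 and 351 in WT 1, 3 and 5. WT 5 was high and the groups overlapped (log2 fold change -0.16, SE 0.11). After the GC correction its interval shortened to -0.30 to -0.017 (log2 fold change -0.16, unadjusted p = 0.0315, edgeR adjusted p = 0.81), with KO libraries at 259, 269 and 286 and WT libraries at 282, 305 and 322 corrected CPM, still overlapping.

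Gabrb2 was at 6.58 times the mean FPKM of the next subunit. Behind it came 4 genes of like level over all 6 libraries, Gabra4 (6.56 FPKM), Gabra2 (6.55), Gabrb1 (6.29) and Gabra3 (5.75), whose ranges overlapped from each to the next. Gabrg1 (3.45 FPKM), Gabra5 (1.10), Gabrg3 (0.385) and Gabre (0.153) followed, each above the next in 6 of 6 libraries. Gabra5, an alpha subunit mostly found outside synapses, had 52, 53 and 36 counts in KO, against 55, 49 and 53 counts in WT (log2 fold change -0.20, SE 0.24). Gabre, which gives the epsilon subunit, had 16, 7 and 8 counts in KO, against 14, 13 and 9 counts in WT, too few for a difference of this size to be detected (log2 fold change -0.26, 95% interval -1.27 to 0.74). Gabrg3 (log2 fold change -0.030) and Gabra3 (-0.18, SE 0.15) also overlapped as counted. The GC correction parted Gabra3, with corrected CPM of 22.1, 22.3 and 21.8 in KO 2, 4 and 6, against 22.4, 25.7 and 27.2 in WT 1, 3 and 5, and an unadjusted p of 0.0989 in the edgeR fit. After that correction the groups did not overlap in 11.4% of all genes, and Gabra3 was the 1 such gene among the 26.

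**Figure D2:**
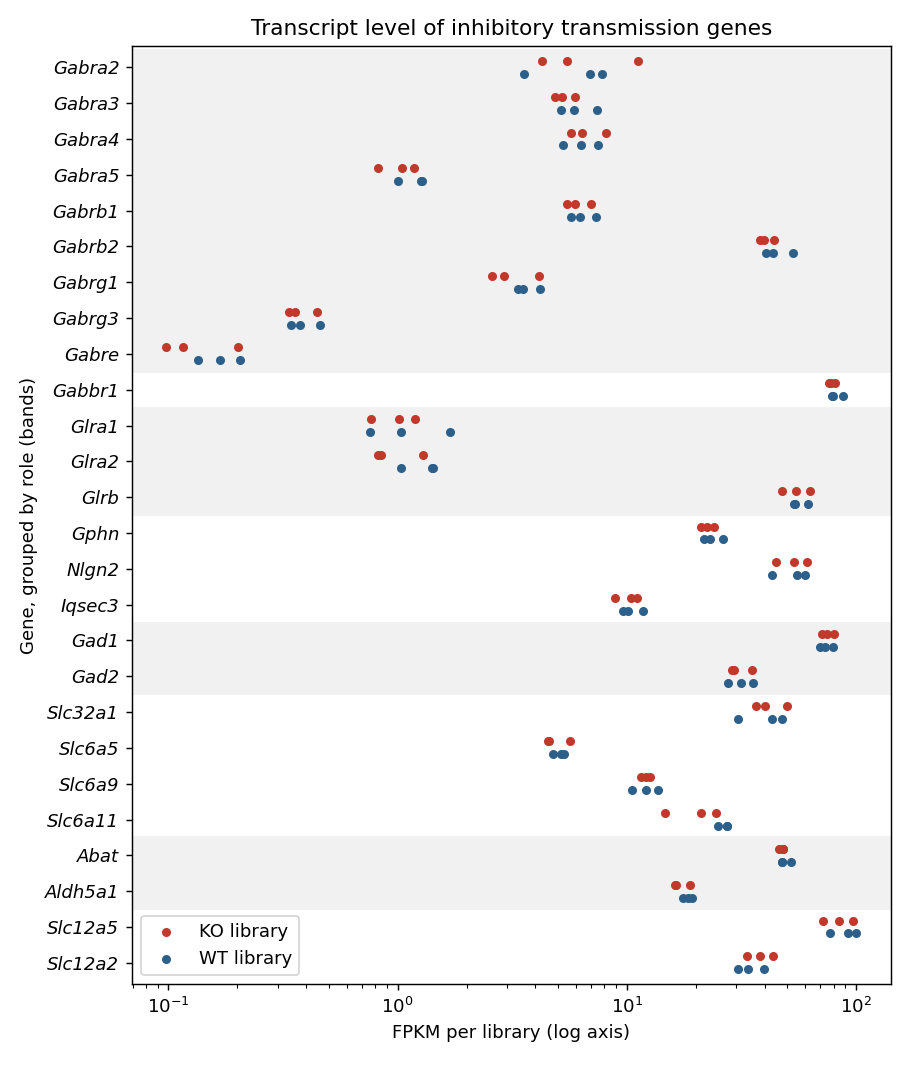
FPKM of each gene in each library on a log axis, KO points above WT points, with shaded and white bands for the roles. Levels span from 0.0980 FPKM (Gabre, KO 4) to 100.3 FPKM (Slc12a5, WT 3), and KO and WT ranges overlap for all genes but Slc6a11.

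Gabra2, Gabrg1, Gabra4 and Gabrb1 form a cluster on chromosome 5, and Gabra2 and Gabrg1 are known from Bergmann glia. In GRCm38.p6 Gabrg1 lay at 70751047 to 70842617, Gabra2 at 70957597 to 71095849 and Gabra4 at 71569749 to 71658308, all on the - strand, and Gabrb1 at 71658113 to 72149037 on the + strand. Gabra2 differed more between animals than any other member. It was at 34.5, 90.6 and 44.0 CPM in KO 2, 4 and 6, against 28.5, 55.3 and 61.8 CPM in WT 1, 3 and 5. KO 4 was highest and WT 1 lowest, a 3.17-fold range, and the groups overlapped widely. Its spread within groups (SD 0.67 on the log2 scale) was larger than that of 99.4% of the 10525 tested genes with at least 10 CPM. Gabra2 had a log2 fold change of 0.21 (SE 0.36, 95% interval -0.59 to 1.01), and it was -0.31 without KO 4 and -0.056 without WT 1.

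The other genes of the cluster did not share this spread. Gabrg1 ranged 1.60-fold over the 6 libraries, Gabra4 1.56-fold and Gabrb1 1.33-fold. Gabrb1 was at 86.6, 102 and 79.6 CPM in KO, against 82.9, 90.7 and 106 CPM in WT (log2 fold change -0.059, SE 0.13). After the GC correction Gabrb1 was at 88.5, 89.1 and 88.7 in KO and at 88.2, 98.9 and 91.9 corrected CPM in WT, and its spread within groups was 0.059, against 0.18 as counted. Gabra4 was at 36.6, 52.3 and 41.0 CPM in KO and 40.4, 33.6 and 47.2 CPM in WT (log2 fold change 0.10, SE 0.165). Gabrg1 was at 24.2, 34.4 and 21.5 CPM in KO and 29.2, 27.6 and 34.1 CPM in WT (-0.18, SE 0.18). For Gabra2 the correction left a spread of 0.54, with 76.3 in KO 4 and 30.9 corrected CPM in WT 1. The transcripts of Gabra4 and Gabrb1 share 46 exonic bases on opposite strands.

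**Figure D3:**
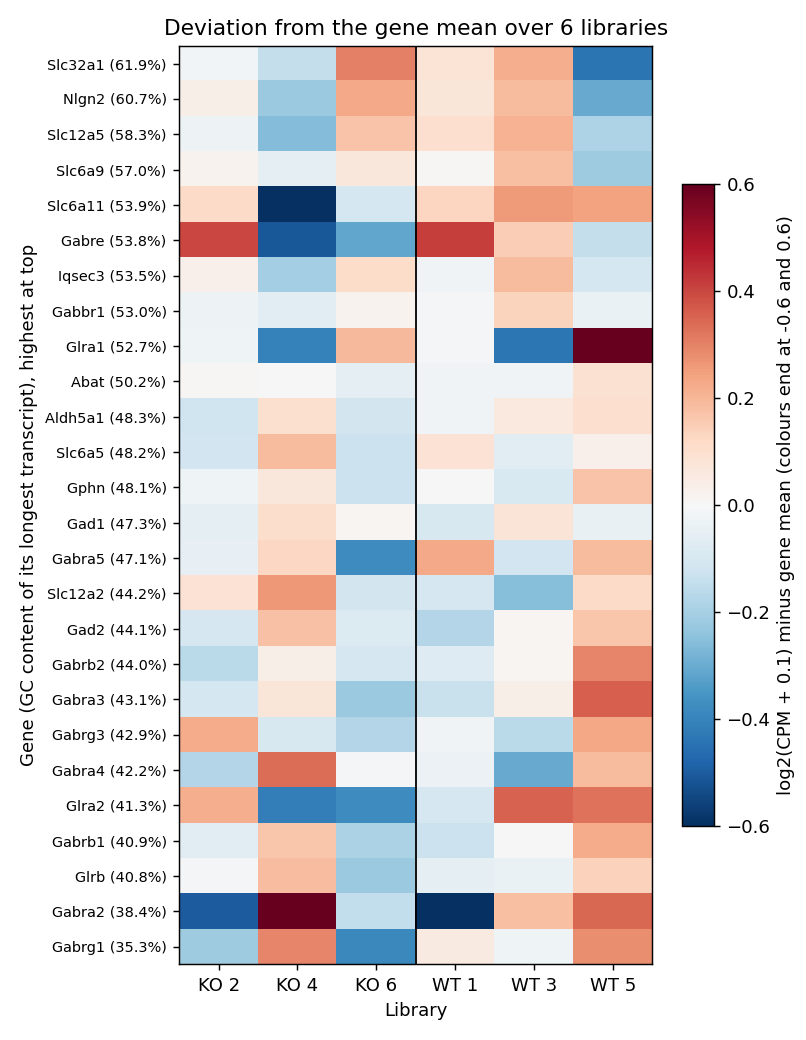
Deviation of each gene's log2(CPM + 0.1) from its mean over the 6 libraries, KO libraries left and WT right, with genes ordered by the GC content of their longest transcript. In KO 4 and WT 5 most GC-rich genes at the top are blue (low) and most GC-poor genes at the bottom red (high), while KO 6 shows mostly the opposite order.

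Gabbr1, the GABA-binding subunit of the metabotropic GABA-B receptor, was among the steadiest genes. It was at 640, 624 and 662 CPM in KO, against 647, 717 and 635 CPM in WT (log2 fold change -0.054, SE 0.089). In FPKM it stood at 78.4 ± 2.40 in KO, against 82.2 ± 5.29 in WT (SD over 3 animals).

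Glycine receptors are built from alpha subunits and the beta subunit Glrb, which ties the receptor to gephyrin. Glrb was 49.1 times as high in FPKM as the next subunit, Glra2. It was at 270, 309 and 233 CPM in KO, against 262, 264 and 299 CPM in WT (log2 fold change -0.023, SE 0.12). KO 4 and WT 5 were high and KO 6 low, and after the GC correction its spread within groups was 0.066, against 0.16 as counted. Glra2, an alpha subunit best known from the developing brain, had 68, 39 and 39 counts in KO, against 47, 74 and 63 counts in WT (log2 fold change -0.38, SE 0.27, 95% interval -0.97 to 0.22). Glra1, the alpha subunit of adult brainstem and spinal cord, had 41, 28 and 42 counts in KO, against 36, 30 and 58 counts in WT (log2 fold change -0.21, SE 0.34). The groups overlapped for both. At these counts a 1.5-fold lower level in KO lay within both intervals (Glra1 -0.97 to 0.55), and a 1.5-fold higher level within neither.

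The fold changes of all 3 scaffold and adhesion genes lay within 0.1 of 0 on the log2 scale. Gphn encodes gephyrin, the protein that holds glycine and GABA-A receptors at the synapse, and was at 89.0, 95.2 and 82.9 CPM in KO, against 90.9, 85.1 and 102 CPM in WT (log2 fold change -0.057, SE 0.11). Iqsec3, an activator of Arf GTPases that binds gephyrin, was at -0.043 (SE 0.12). Nlgn2, the neuroligin of inhibitory synapses, was at 328, 274 and 374 CPM in KO, against 337, 365 and 260 CPM in WT (log2 fold change 0.022, SE 0.15). KO 4 and WT 5 were its low libraries. After the GC correction the values were 320, 321 and 326 in KO and 309, 332 and 313 corrected CPM in WT. The spread within groups was then 0.040, against 0.24 as counted, and the 95% interval was -0.099 to 0.14.

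The GABA-producing enzymes also lay within 0.1 of 0, and both overlapped between the groups. Gad1, which encodes GAD67, was at 577, 645 and 604 CPM in KO, against 560, 633 and 582 CPM in WT (log2 fold change 0.041, SE 0.092). Gad2, which encodes the synaptic form GAD65, was at 180, 218 and 182 CPM in KO, against 171, 194 and 216 CPM in WT (log2 fold change -0.004, SE 0.12). In FPKM Gad1 was 2.38 times as high as Gad2 over the 6 libraries. Abat, the transaminase that starts GABA breakdown, had the smallest spread of the 26 (SD 0.052) and was at 395, 393 and 379 CPM in KO, against 387, 388 and 419 CPM in WT (-0.032, SE 0.085). Aldh5a1, which completes the breakdown to succinate, was at -0.088 (SE 0.099).

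Slc6a11 encodes GAT-3, a GABA transporter of astrocytes, and was the member with the largest difference. Its counts were 2081, 1117 and 1567 in KO 2, 4 and 6, against 1826, 2263 and 1949 in WT 1, 3 and 5. In CPM these were 131, 78.0 and 113 in KO, against 133, 144 and 143 in WT. Every KO library lay below every WT library, but KO 2 and WT 1 differed by little and KO 4 lay far below the rest. Groups did not overlap for 1 of the 26 genes, against 7.26% of all tested genes. KO lay below WT for that 1, against 3.68% of all tested genes, and above WT for 0 of the 26, against 3.58%. In the fit Slc6a11 had a log2 fold change of -0.39 (SE 0.16, 95% interval -0.75 to -0.020, unadjusted p = 0.0408, edgeR adjusted p = 1.0), a KO level of 76.6% of WT. Without KO 4 it was -0.20. With the GC correction it was -0.42 (unadjusted p = 0.00899, edgeR adjusted p = 0.66), and KO 2 and WT 1 then overlapped.

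**Figure D4:**
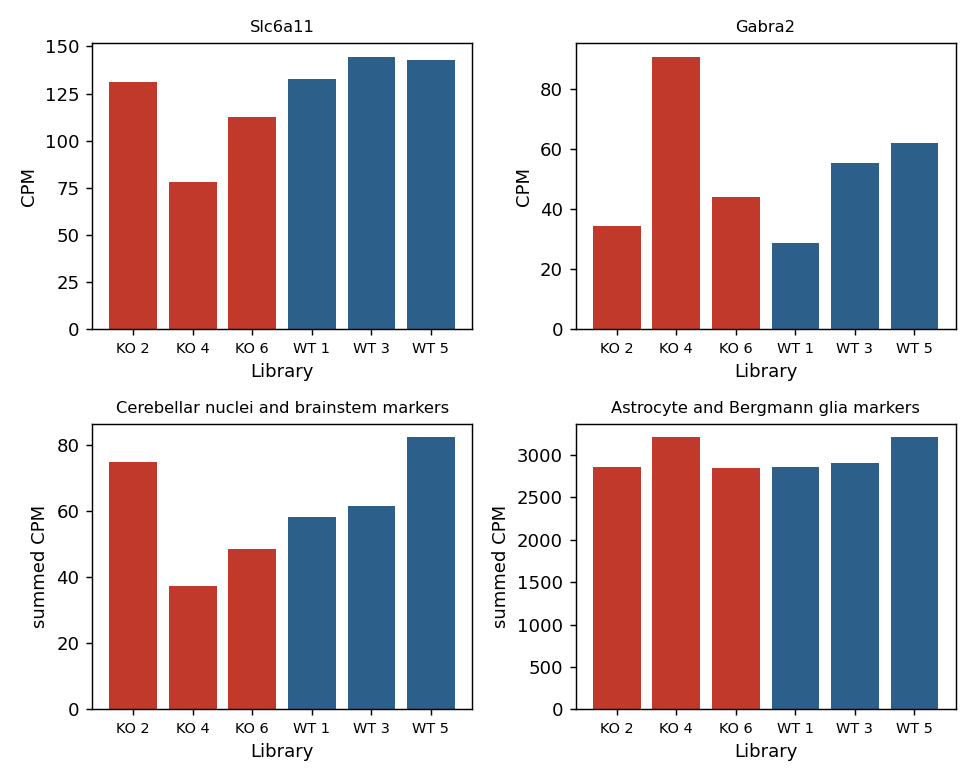
CPM of Slc6a11 and Gabra2 and the summed CPM of 9 cerebellar nuclei and brainstem markers and of 7 astrocyte and Bergmann glia markers, in KO 2, 4 and 6 (red) and WT 1, 3 and 5 (blue). KO 4 is lowest for Slc6a11 (78.0 CPM) and for the sum of the nuclei and brainstem markers (37.1 CPM), and highest for Gabra2 (90.6 CPM). For the astrocyte markers KO 4 (3206 CPM) is highest, with WT 5 at 3204 CPM. All values are as counted.

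Markers of other cells were set beside Slc6a11, with sums as counted and not GC-corrected. Of 7 markers of astrocytes and Bergmann glia none passed and 4 were positive, and their summed level was 2860, 3206 and 2845 CPM in KO 2, 4 and 6, against 2853, 2901 and 3204 CPM in WT 1, 3 and 5. The astrocyte sum was highest in KO 4 and WT 5, the libraries with a negative rho with GC content. Of 9 markers of cerebellar nuclei and brainstem neurons 4 were tested, 2 were positive and 2 negative, and none passed. Their summed level was 74.9, 37.1 and 48.5 CPM in KO, against 58.0, 61.4 and 82.2 CPM in WT. It was lowest in KO 4, as was Slc6a11, and Hoxb3, Hoxb5 and Hoxa5 were at 0 in all 6 libraries. Most of that sum was Slc17a6, the vesicular glutamate transporter of nuclei neurons, with 1063, 417 and 585 counts in KO, against 701, 875 and 1036 in WT. Th, the tyrosine hydroxylase of catecholamine neurons, ran the other way (log2 fold change 0.55, SE 0.28). It was at 6.92, 6.28 and 5.03 CPM in KO, against 5.08, 4.85 and 2.49 CPM in WT. The log2 fold changes of the 4 tested markers ran from -1.43 to 0.55, and the groups overlapped for all 4. The part of these cells in the Slc6a11 values was not tested.

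The other transporters overlapped between groups. Slc32a1, which loads GABA and glycine into vesicles, was at 119, 109 and 148 CPM in KO, against 127, 139 and 88.5 CPM in WT (log2 fold change 0.079, SE 0.17). KO 6 was high and WT 5 low. After the GC correction it was at 116, 129 and 127 in KO and 116, 126 and 108 corrected CPM in WT. Slc6a5, the glycine transporter GlyT2 of glycinergic terminals and thus of Golgi cells, was at 34.8, 43.1 and 34.5 CPM in KO, against 40.1, 36.1 and 38.6 CPM in WT (-0.030, SE 0.12). Slc6a9, the mainly glial glycine transporter GlyT1, was at 0.010 (SE 0.12). The 11 markers of molecular layer and Golgi interneurons summed to 1040 to 1129 CPM in KO and 1033 to 1118 CPM in WT, and none passed. The 8 granule cell markers, whose cells receive Golgi cell input, summed to 5722 to 5840 CPM in KO and 6216 to 6381 CPM in WT, with 0 positive and none called.

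Slc12a5 encodes KCC2, which moves chloride out of neurons, and had the highest FPKM of the 26, at 84.4 ± 12.6 in KO, against 90.1 ± 11.9 in WT (SD over 3 animals). Slc12a2 encodes NKCC1, which moves chloride in and is also abundant in choroid plexus and glia. Slc12a5 was at 663, 564 and 762 CPM in KO, against 726, 781 and 595 CPM in WT (log2 fold change -0.080, SE 0.13). Slc12a2 was at 264, 298 and 231 CPM in KO, against 232, 208 and 270 CPM in WT (log2 fold change 0.16, SE 0.13). Both overlapped, and the libraries low in one gene were high in the other.

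The ratio of the 2 within a library does not depend on the scaling of that library. The log2 ratio of Slc12a5 to Slc12a2 was 1.33, 0.92 and 1.72 in KO 2, 4 and 6, against 1.64, 1.91 and 1.14 in WT 1, 3 and 5. The groups overlapped (difference KO minus WT -0.24, exact two-sided permutation p = 0.6, 0.8 adjusted over 4 ratios). The transcripts differ in GC content (58.3% for Slc12a5 and 44.2% for Slc12a2). With the GC correction the log2 ratio was 1.28, 1.22 and 1.46 in KO, against 1.49, 1.73 and 1.48 in WT, and every KO value lay below every WT value. The difference was again -0.24, with KO at 1.32 ± 0.126 and WT at 1.57 ± 0.138 (SD over 3 animals; p = 0.1 by the exact permutation test, 0.4 adjusted over 4 ratios). A p of 0.1 is the smallest that 3 against 3 animals allow. In the same corrected fit Slc12a2 had a log2 fold change of 0.15 (unadjusted p = 0.0446) and Slc12a5 of -0.094 (unadjusted p = 0.11), with edgeR adjusted p of 0.84 and 0.89. The 8 choroid plexus markers were all positive, and KO and WT libraries overlapped for all 8. In the edgeR fit 7 had an unadjusted p under 0.05, against 2.75% of all tested genes, and none was called, against 0.0467%. The 8 markers summed to 1375, 1858 and 623 CPM in KO, against 764, 284 and 161 CPM in WT. The sum was highest in KO 4, as was Slc12a2, and lowest in WT 5, where Slc12a2 was above the other WT libraries. After the GC correction Slc12a2 was at 267, 274 and 246 in KO and 242, 220 and 248 corrected CPM in WT. The part of the choroid plexus in the ratio was not tested.

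The other 3 ratios overlapped between groups. The log2 ratio of Gad1 to Gad2 was 1.66 ± 0.0829 in KO and 1.61 ± 0.162 in WT (exact permutation p = 0.8). That of Slc6a5 to Slc32a1 was -1.73 ± 0.386 in KO and -1.60 ± 0.380 in WT (exact permutation p = 0.7). It sets a transcript of glycinergic neurons over one of all inhibitory neurons and does not measure terminals. The log2 ratio of Abat to Gad1 was -0.64 ± 0.0876 in KO and -0.57 ± 0.121 in WT (SD over 3 animals, exact permutation p = 0.4). The adjusted value over the 4 ratios was 0.8 in each case as counted. After the GC correction these 3 ratios still overlapped. Gad1 to Gad2 was then at 1.66 ± 0.0152 in KO and 1.62 ± 0.0980 in WT (exact permutation p = 0.8). Slc6a5 to Slc32a1 was at -1.74 ± 0.129 in KO and -1.60 ± 0.150 in WT (exact permutation p = 0.3). Abat to Gad1 was at -0.65 ± 0.0871 in KO and -0.57 ± 0.169 in WT (exact permutation p = 0.7). Adjusted over the 4 ratios these were 0.8, 0.6 and 0.8.

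The differences of the 26 genes between animals ran with GC content. Their deviation from the mean had a Spearman rho with GC content, over the 26 genes, of 0.44, -0.67 and 0.70 in KO 2, 4 and 6, against 0.66, 0.44 and -0.71 in WT 1, 3 and 5. With the correction the spread within groups was smaller for 22 of the 26, and for 69.4% of all 16913 genes with a transcript. Its median was 0.093, against 0.20 as counted, while over all those genes the medians were 0.16 and 0.21. The median standard error of the fold change was 0.072 after the correction, against 0.13 as counted, and over all genes it was 0.129, against 0.165. Of the 26 genes 3 then had an unadjusted p under 0.05 (Slc6a11, Gabrb2 and Slc12a2), against 5.83% of all genes, and 0 passed adjustment, against 0.13%.

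The list was set beside 58 other genes of the pathway, of which 55 were tested. None passed, with 1 at an unadjusted p under 0.05 (2.75% of all tested genes), and 23 were positive and 32 negative (median -0.024). Groups did not overlap for 6 of the 55 (10.9%), against 7.26% of all tested genes, with KO above WT in 2 and below in 4. Of 7 tested receptor subunits outside the list all had a negative fold change. The 1 gene at that unadjusted p was Gabrq, which gives the theta subunit and lies on the X chromosome. It had 34, 11 and 30 counts in KO 2, 4 and 6, against 45, 40 and 56 counts in WT 1, 3 and 5, without overlap (log2 fold change -0.96, SE 0.39, unadjusted p = 0.0335, edgeR adjusted p = 1.0). KO 4 was lowest, as it was for Slc6a11 and for the sum of the nuclei and brainstem markers, most of which was Slc17a6. Th, from that marker list, was not lowest in KO 4. A link between these values was not tested.

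Of the other transporters 6 of 7 were positive. Slc38a2, a glutamine transporter, was at a log2 fold change of 0.079 and the betaine and GABA transporter Slc6a12 at 0.32 (unadjusted p = 0.126). Among 12 genes of glutamine, glutamate and glycine metabolism 7 were positive, with Glul, the glutamine synthetase of astrocytes, at 0.12 and Glud1 at -0.028. Among 10 genes of chloride transport and its kinases Wnk2 was at 0.004 and Wnk1 at -0.017. Stk39, the kinase SPAK that activates NKCC1, was at 0.20 (SE 0.11, unadjusted p = 0.0839), with 76.2, 85.1 and 68.4 CPM in KO, against 67.4, 66.8 and 65.1 CPM in WT. The groups did not overlap, with KO 6 only just above WT 1. Among 19 other receptor partners 5 were positive, with Gabarapl1 at -0.008 and Insyn1 at -0.060.

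Whether reads were counted by strand is something the sources used here do not give. By GENCODE exons, 8 of the 26 share bases with a gene on the opposite strand, and for 4 these are over 5% of their exonic length. For Slc6a9 they were 1429 bases with Ccdc24 (27.8%), 511 with Gm17114 and 46 with B4galt2, a gene at 31.3 CPM. Slc32a1 shared 697 bases with Gm14205 (24.9%). Aldh5a1 shared 796 bases with 4932702P03Rik (14.1%) and 203 with 9330162012Rik. Glra1 shared 141 bases with Gm12236 (5.84%). Over the 6 libraries Ccdc24 averaged 0.63 CPM, 4932702P03Rik 1.87 CPM and 9330162012Rik 3.89 CPM. Gm17114, Gm14205 and Gm12236 were not among the tested genes. The counts of Slc6a9, Slc32a1, Aldh5a1 and Glra1 are uncertain because the handling of strand is not given.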

How the data were processed

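Whole cerebellum RNA from 3 KO and 3 WT male mice was extracted with TRIZOL and sequenced through a company, per the labels' protocols. The submitters' processing notes list HISAT2 and DESeq2, with no version, and the build GRCm38.p6. The sources used here name no counting program. The deposited counts are whole numbers per gene and library, not normalized, and the deposited FPKM values are scaled to gene length and library by the authors. The deposited table also holds group means (a signal), log2 fold changes and p-values from the authors' comparison, which no result here uses.

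Titles gave group and animal number. The test was edgeR 4.0.16's quasi-likelihood test (R 4.3.3) on counts, with TMM normalization, filterByExpr and Benjamini-Hochberg adjustment over 17142 genes, calls at an adjusted p under 0.05. Standard errors divide the size of a log2 fold change by the square root of its F statistic. A count of 1 was worth 0.0629 to 0.0733 CPM. The intervals of fold changes rest on 3 animals per group and on a spread drawn toward the trend over all genes in the fit. DESeq2 1.42.0, limma 3.58.1 (voom), other normalizations and filters and each library left out were alternatives. The GC correction, added after the data were seen, fitted a smoothing spline (5 degrees of freedom) of each library's deviation on the GC content of the longest GENCODE vM21 transcript, matched for 16913 genes (98.7%), and entered it as an offset in edgeR; corrected CPM are computed from counts plus 0.5, divided by that smooth. Ratios use counts plus 0.5. Deviations use log2(CPM + 0.1). The fits were tested on simulated data. All 26 genes are named, and of other pathway genes the 2 of highest FPKM per list and the 3 of smallest p. Some genes that this rule picks are not reported here. The genes and lists were chosen with earlier results of these data known. Tables and figures used Python 3.11.15, pandas 2.3.3, SciPy 1.17.1 and matplotlib 3.10.9.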

Additional observations from a re-analysis of the deposited data

How the results depend on the processing

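None of the 26 genes and none of the 55 other pathway genes was called in any of the 15 alternatives, and the smallest adjusted p of a member was 0.21 (Slc6a11, edgeR with no low-count filter). Over all genes 8 were called. The count was 142 with no low-count filter, 38 by DESeq2, 40 with WT 5 and KO 4 both left out, 34 with a term for those libraries, 22 with GC-corrected offsets, and 0 to 28 with 1 library left out. The cause of these shifts was not tested. Slc6a11 kept its direction in all alternatives, at -0.55 to -0.18. The fold changes of 9 of the 26 kept their sign throughout. With 1 library left out the log2 fold change ran from -0.31 to 0.47 for Gabra2, -0.054 to 0.23 for Gabra4, -0.16 to 0.045 for Gabrb1, -0.16 to 0.091 for Gabrg3, -0.085 to 0.0069 for Gabbr1, -0.44 to 0.16 for Glra1, -0.12 to 0.074 for Glrb, -0.11 to 0.020 for Gphn, -0.11 to 0.14 for Nlgn2, -0.11 to 0.053 for Iqsec3, -0.093 to 0.085 for Gad2, -0.089 to 0.22 for Slc32a1, -0.14 to 0.026 for Slc6a5, -0.082 to 0.12 for Slc6a9, -0.050 to 0.0085 for Abat and -0.19 to 0.027 for Slc12a5. The difference in log2 ratio ran from -0.050 to 0.093 for Gad1 to Gad2 and from -0.33 to 0.072 for Slc6a5 to Slc32a1. With WT 5 and KO 4 both left out the sign turned for Gabra2 (-0.100), Gabrg3 (0.14), Glra1 (0.31), Gad1 (-0.012), Slc6a9 (-0.048), Abat (0.0010) and the ratios of Gad1 to Gad2 (-0.0042) and Abat to Gad1 (0.010). Gad2 turned to 0.014 with library totals only and to 0.0023 with no low-count filter. No paired analysis was possible because KO and WT libraries share no animal number. Low counts limit Gabre, Glra1, Glra2, Gabra5 and Gabrg3.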

Other observations

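Other glycine receptor subunits were counted at low levels. Glra3 had 101, 45 and 42 counts in KO 2, 4 and 6, against 60, 80 and 127 counts in WT 1, 3 and 5 (log2 fold change -0.57, SE 0.37). Glra4 had 15, 4 and 17 counts in KO, against 21, 16 and 21 counts in WT (log2 fold change -0.73, SE 0.50). Both were chosen for mention after their values were seen. The 7 microglial markers all had a positive fold change, with a summed level of 107 to 144 CPM in KO and 86.6 to 90.7 CPM in WT. Of the 7, 4 had p under 0.05 by edgeR before adjustment, against 2.75% of all tested genes, and 4 had every KO library above every WT library, against 3.58%. None was called by edgeR or by limma-voom, and 1 was called by DESeq2, the cathepsin gene Ctss (log2 fold change 1.01, DESeq2 adjusted p = 0.0019, edgeR adjusted p = 0.28, limma-voom adjusted p = 0.39).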
